A study of Caenorhabditis elegans with 14 samples.

Results

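Yolk in Caenorhabditis elegans is made of vitellogenins, and the genes followed here are those of its 6 vitellogenins, vit-1 to vit-6, and of the yolk receptor, rme-2. They were found by their names, which matched 7 of 41875 entries (a gene name with its locus) in the authors' expression table. All 7 had a value above 0 in every group and were tested in every comparison.

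Vitellogenins are large lipid-carrying proteins, related to the apolipoprotein B of vertebrates. The intestine of the adult hermaphrodite makes them and secretes them into the body cavity. Growing oocytes bind yolk through RME-2, a receptor of the low-density lipoprotein (LDL) receptor family, and take it in by clathrin-dependent endocytosis. The transcripts of the vitellogenins and of their receptor therefore come from different tissues of the same animal, the intestine and the germ line. The genes vit-1 to vit-5 encode the larger yolk proteins, and vit-6 encodes a precursor that is cut into the smaller ones.

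RNA came from whole worms on NGM plates with OP50 bacteria at 20 °C, synchronized and gravid on day 1 of adulthood. Wild type was Bristol N2, and the other strain carried pycr-1(wrm22), an allele of the gene for a proline-making reductase. Lysates of both strains, prepared with cycloheximide to hold ribosomes on mRNA, gave total RNA and, after sucrose gradients, polysomal RNA from fractions with 3 or more ribosomes per mRNA. There were 3 libraries of wild-type total, 3 of wild-type polysomal, 4 of pycr-1(wrm22) total and 4 of pycr-1(wrm22) polysomal RNA, 14 in all. Neither what wrm22 changes in the gene nor whether replicates were separate cultures is stated in the labels. The p-values therefore measure only the spread between these libraries, as modelled by Cuffdiff. The transcript of pycr-1 itself was listed at 4.91 FPKM in wild-type total, 12.6 in wild-type polysomal, 20.3 in pycr-1(wrm22) total and 40.8 in pycr-1(wrm22) polysomal RNA, and by the authors' deposited table it was higher in the mutant-labelled worms (log2 fold changes 2.05 and 1.70, adjusted p = 0.000207 in both, Cuffdiff). That level cannot check the labels, and every direction between the strains rests on them.

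Levels are in FPKM, fragments scaled by the length of the transcript and by sequencing yield, so different genes can be set side by side. The table holds 1 pooled value per gene and group and none per library. A spread (SD) or standard error (SE) is the one implied by the Cuffdiff test statistics on the log2 scale, the SE taking account of the 3 or 4 libraries behind a group. Each value after ± is such an SE, derived here and not held in the authors' table. A gene passed where the authors' q-value was under 0.05.

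The vitellogenin genes lie on chromosomes X and IV, and positions are on genome build WBcel235. They are the spans in the authors' table, which differ from the annotated ends for vit-2, vit-3, vit-4, vit-6 and rme-2. On chromosome X, vit-5 (WBGene00006929) occupies 3403471 to 3408603 on the plus strand and vit-4 (WBGene00006928) 3558839 to 3563991 on the minus strand. Next to it on the same strand is vit-3 (WBGene00006927), at 3567355 to 3572566, 3363 bases away with 0 annotated genes between. Between the annotated ends the distance is 3389 bases. Further along X are vit-2 (WBGene00006926), at 5101032 to 5106173, and vit-1 (WBGene00006925), at 7727889 to 7733168, both on the plus strand. Chromosome IV holds vit-6 (WBGene00006930) at 8261007 to 8266462 and rme-2 (WBGene00004374) at 5469961 to 5473174, both on the plus strand. In the Ensembl annotation of that build vit-3, vit-4 and vit-5 have 6 exons each and the same coding length, 4809 bases, against 4839 for vit-2, 4848 for vit-1, 4953 for vit-6 and 2775 for rme-2. How reads that map to several places were shared out is not given in the sources used here, and the split between near-identical vitellogenin genes is uncertain. Noncoding genes on the opposite strand overlap the ends of vit-3 and vit-4, and a short coding gene overlaps the end of vit-2. The deposited span of vit-6 also takes in a noncoding gene on the opposite strand. That gene ends at 8261150, before the annotated start of vit-6 at 8261157. The highest level listed for any of them was 10.8 FPKM, for T27A10.8 at vit-3 in wild-type total RNA. In the gene ontology terms of the authors' table, nutrient reservoir activity was given to 6 entries, which are the 6 vitellogenins, and low-density lipoprotein receptor activity to 1, rme-2.

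The vitellogenin mRNAs were among the most abundant in the worm. The gene vit-6 was listed at 3376 FPKM in wild-type total, 5420 in wild-type polysomal, 3017 in pycr-1(wrm22) total and 4463 in pycr-1(wrm22) polysomal RNA. Among 19906 protein-coding entries it ranked 22nd, 7th, 29th and 4th in those groups. The polysomal level was the higher of the pair in each strain, and the wild-type level the higher in each fraction.

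The next level was that of vit-2, at 2116, 3663, 1836 and 2953 FPKM in the same order of groups. For vit-5 the levels were 1586, 2606, 1328 and 2075 FPKM. The order of the 4 groups was the same for vit-6, vit-2 and vit-5: wild-type polysomal highest, then pycr-1(wrm22) polysomal, wild-type total and pycr-1(wrm22) total.

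The lower-expressed vitellogenin genes shared that order of groups. For vit-1 the levels were 831 FPKM in wild-type total, 1618 in wild-type polysomal, 617 in pycr-1(wrm22) total and 1127 in pycr-1(wrm22) polysomal RNA. The neighbours vit-3 and vit-4 stood at 623, 1053, 461 and 729 FPKM and at 524, 847, 406 and 628 FPKM. Even vit-4 ranked between 183rd and 227th among the protein-coding entries.

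The receptor gene had another profile. For rme-2 the levels were 445 FPKM in wild-type total, 222 in wild-type polysomal, 201 in pycr-1(wrm22) total and 69.3 in pycr-1(wrm22) polysomal RNA. Its highest group was wild-type total RNA, and its lowest was pycr-1(wrm22) polysomal RNA, where each vitellogenin stood at its second-highest level. Its rank went from 232nd in wild-type total to 1609th in pycr-1(wrm22) polysomal RNA.

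**Figure D1:**
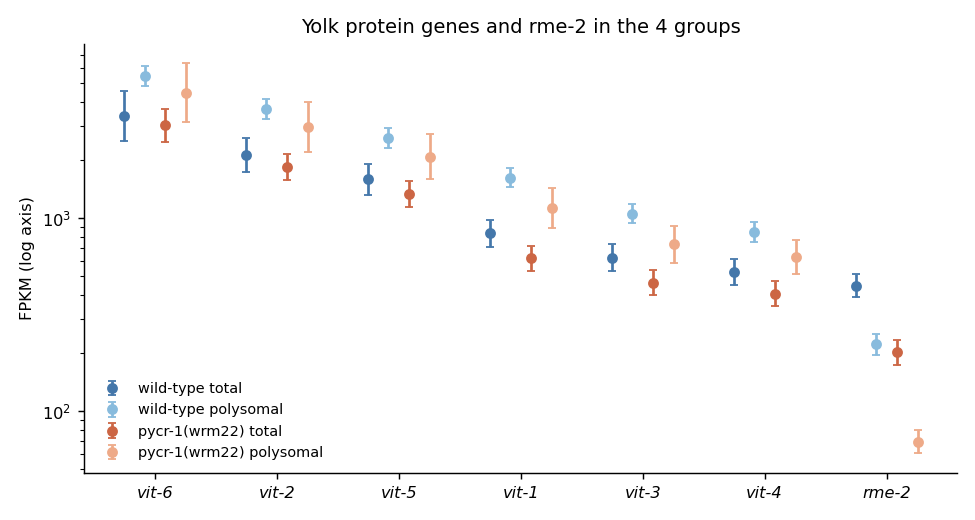
Level of each gene in FPKM (log axis) in the 4 groups, 1 pooled point per group, with bars of 1 SD implied by the Cuffdiff test statistics. The vitellogenin points run from 406 to 5420 FPKM with the polysomal point above the total one in each strain, while rme-2 runs from 445 down to 69.3 FPKM with the polysomal point below.

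In every group the levels fell in the order vit-6, vit-2, vit-5, vit-1, vit-3, vit-4, rme-2. In wild-type polysomal RNA each step of that order was larger than the combined SD of the neighbours. In wild-type total RNA 2 steps were not, vit-3 to vit-4 (a gap of 0.25 against a combined SD of 0.31 on the log2 scale) and vit-4 to rme-2 (0.24 against 0.29). In pycr-1(wrm22) total RNA vit-3 and vit-4 again did not differ beyond their spread (0.18 against 0.30). In pycr-1(wrm22) polysomal RNA vit-6 and vit-2 (0.60 against 0.66), vit-2 and vit-5 (0.51 against 0.58) and vit-3 and vit-4 (0.22 against 0.43) did not. The combined SD treats neighbouring genes as independent, though they were measured in the same libraries, and no step was tested.

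Summed over the 6 genes, vitellogenin mRNA stood at 9056 FPKM in wild-type total, 15208 in wild-type polysomal, 7665 in pycr-1(wrm22) total and 11975 in pycr-1(wrm22) polysomal RNA. The make-up of that sum moved little between groups. The share of vit-6 was 37.3%, 35.6%, 39.4% and 37.3%, and that of vit-2 was 23.4%, 24.1%, 24.0% and 24.7%. The share of vit-1 ranged from 8.05% in pycr-1(wrm22) total to 10.6% in wild-type polysomal RNA, and vit-4 held 5.24% to 5.79%. Pooled values give no error for these shares.

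As a share of the FPKM of all protein-coding entries, vitellogenin mRNA made up 1.08% in wild-type total, 1.55% in wild-type polysomal, 1.05% in pycr-1(wrm22) total and 1.47% in pycr-1(wrm22) polysomal RNA. Over all entries the shares were 0.801%, 1.50%, 0.412% and 1.42%. The low value in pycr-1(wrm22) total RNA moved with 1 ribosomal RNA entry, rrn-2.1, listed there at 830999 FPKM and at 0 in the other groups, and without entries the authors marked as low data or failed it was 0.756%. The vitellogenin sum was 20.3 times the level of rme-2 in wild-type total, 68.6 times in wild-type polysomal, 38.1 times in pycr-1(wrm22) total and 173 times in pycr-1(wrm22) polysomal RNA.

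The first question was how the strains differed in total RNA. The receptor gene rme-2 fell from 445 to 201 FPKM, 2.21-fold lower in the mutant-labelled worms, and the vitellogenin fold changes were smaller. Its log2 fold change by the authors' deposited table was -1.15 ± 0.15 (SE), with an adjusted p of 0.000207 (Cuffdiff), the smallest given there. Among 8484 entries at 5 FPKM or more in both groups, 0.978% had a lower fold change than rme-2.

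Of the vitellogenins, 3 of 6 passed, all downwards. By the authors' deposited table vit-1 fell by 0.43 ± 0.18 on the log2 scale (adjusted p = 0.0290), vit-3 by 0.43 ± 0.17 (adjusted p = 0.0209) and vit-4 by 0.37 ± 0.16 (adjusted p = 0.0437, Cuffdiff). These are the vitellogenin genes of lowest level. The others did not pass. They stood in the authors' deposited table at -0.20 ± 0.20 for vit-2 (adjusted p = 0.386), -0.26 ± 0.19 for vit-5 (adjusted p = 0.251) and -0.16 ± 0.28 for vit-6 (adjusted p = 0.558) on the log2 scale.

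With rme-2 that made 4 of 7 genes lower and 0 higher, where 27.9% of the 15557 entries tested were lower and 18.6% higher. Among 271 entries at or above the lowest vitellogenin level, 406 FPKM, in both groups, 16.6% were lower and 2.58% higher. The median over the 8484 entries was -0.35, and the median of the 6 vitellogenins, -0.31, lay 0.037 above it, while rme-2 lay 0.79 below. Centred on that median, vit-1, vit-3 and vit-4 stood at -0.079, -0.084 and -0.020 and no longer passed, vit-2, vit-5 and vit-6 turned to the other side of 0, and rme-2 still passed. Rescaled over all entries but the vitellogenins, a sum that holds the ribosomal RNA entry rrn-2.1, rme-2 stood at -1.87 and the vitellogenin median at -1.04.

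In polysomal RNA rme-2 was again the member with the lowest fold change. It fell from 222 to 69.3 FPKM, 3.20-fold lower, which the authors' deposited table gives as -1.68 ± 0.15 on the log2 scale (adjusted p = 0.000207, Cuffdiff). Of 8415 entries at 5 FPKM or more in both groups, 0.238% had a lower fold change.

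Of the vitellogenins, vit-3 alone passed in that fraction. By the authors' deposited table it fell by 0.53 ± 0.18 on the log2 scale (adjusted p = 0.0280, Cuffdiff). Close to the threshold of the authors' deposited table were vit-1, at -0.52 ± 0.20 (adjusted p = 0.0505), and vit-4, at -0.43 ± 0.18 (adjusted p = 0.0550). Further from it in the authors' deposited table were vit-2, vit-5 and vit-6, at -0.31 ± 0.24, -0.33 ± 0.22 and -0.28 ± 0.27 (adjusted p = 0.267, 0.203 and 0.343).

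So 2 of 7 genes were lower and 0 higher, against 23.9% lower and 14.8% higher among 14696 entries tested. Among 311 entries at 406 FPKM or more in both groups 40.5% were lower and 3.22% higher. The median at 5 FPKM or more was -0.26 and that of the vitellogenins -0.38, and rme-2 lay 1.42 below the former. Centred on 74 ribosomal protein genes, the values of vit-2, vit-5 and vit-6 turned to the other side of 0, and only rme-2 passed among the 7. In the labels total and polysomal libraries share replicate numbers, so the 2 strain comparisons are not taken as independent of each other.

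**Figure D2:**
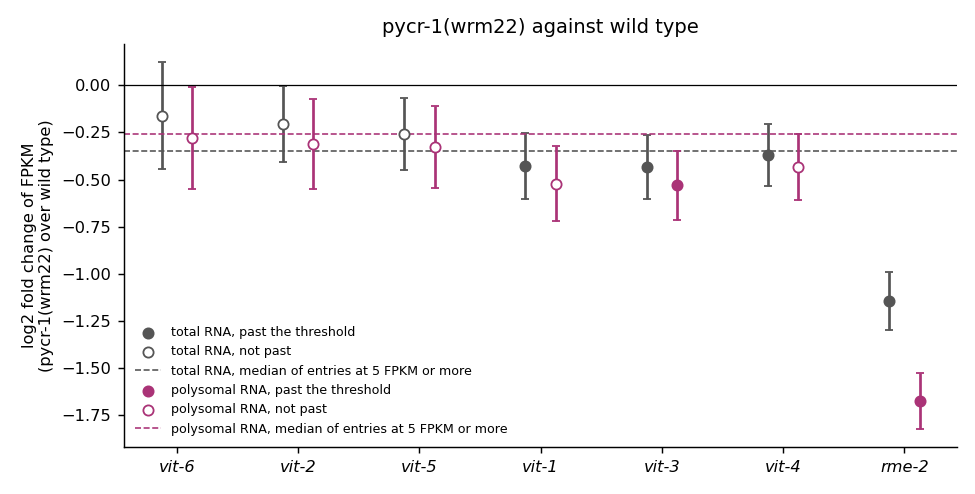
Log2 fold change of FPKM, pycr-1(wrm22) over wild type, for each gene in total and polysomal RNA, with bars of 1 SE, filled points where the authors' q-value was under 0.05, and dashed lines at the median of entries at 5 FPKM or more. The vitellogenin points lie between -0.16 and -0.53, around the dashed line in total RNA and all below it in polysomal RNA. Those of vit-2, vit-5 and vit-6 change sign under some scalings, while rme-2 lies at -1.15 and -1.68.

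The second question was how the transcripts were divided between polysomal and total RNA within a strain. In wild type all 6 vitellogenins were higher in polysomal RNA and rme-2 was lower. The largest ratio was that of vit-1, which the authors' deposited table puts at 0.96 ± 0.17 on the log2 scale (adjusted p = 0.000207, Cuffdiff). In the authors' deposited table vit-2, vit-3, vit-4 and vit-5 ran from 0.69 to 0.79 with adjusted p from 0.000207 to 0.00279, and vit-6 stood at 0.68 ± 0.27 (adjusted p = 0.0198). For rme-2 the authors' deposited table gives -1.01 ± 0.15 (adjusted p = 0.000207), 2.01-fold lower in polysomal RNA.

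That is 6 of 7 higher and 1 lower, where 24.7% of 15266 entries were higher and 26.9% lower. Many abundant transcripts shared the direction of the vitellogenins: of 234 entries at 406 FPKM or more in both groups 73.9% were higher and 6.84% lower. The median at 5 FPKM or more was 0.042 over 8067 entries and 0.74 over the vitellogenins, and 18.3% of those entries lay below rme-2. Centred on the ribosomal protein genes, whose own median was 0.43, all 6 vitellogenins stayed above 0 with a median of 0.31, and vit-1 alone of them still passed.

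In pycr-1(wrm22) the division was alike in direction. By the authors' deposited table vit-1 rose by 0.87 ± 0.20 on the log2 scale (adjusted p = 0.000736), vit-2 by 0.69 ± 0.25 (adjusted p = 0.0282), vit-3 by 0.66 ± 0.19 (adjusted p = 0.00385), vit-4 by 0.63 ± 0.18 (adjusted p = 0.00423) and vit-5 by 0.64 ± 0.22 (adjusted p = 0.0206). The value the authors' deposited table holds for vit-6, 0.56 ± 0.29, did not pass (adjusted p = 0.0987). At rme-2 the ratio in the authors' deposited table was -1.54 ± 0.15 (adjusted p = 0.000207, Cuffdiff), 2.90-fold lower in polysomal RNA.

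Thus 5 of 7 were higher and 1 lower, against 23.9% higher and 27.0% lower among 15425 entries. At 406 FPKM or more in both groups 45.5% of 211 entries were higher and 9.48% lower. The median at 5 FPKM or more was 0.11 over 8512 entries and 0.65 over the vitellogenins, and 5.79% of those entries lay below rme-2. Rescaled over all entries but the vitellogenins, with rrn-2.1 in the sum, rme-2 stood at -0.38 and the vitellogenin median at 1.81, each in the same direction. Each of these comparisons shares its total RNA libraries with the strain comparison in total RNA.

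**Figure D3:**
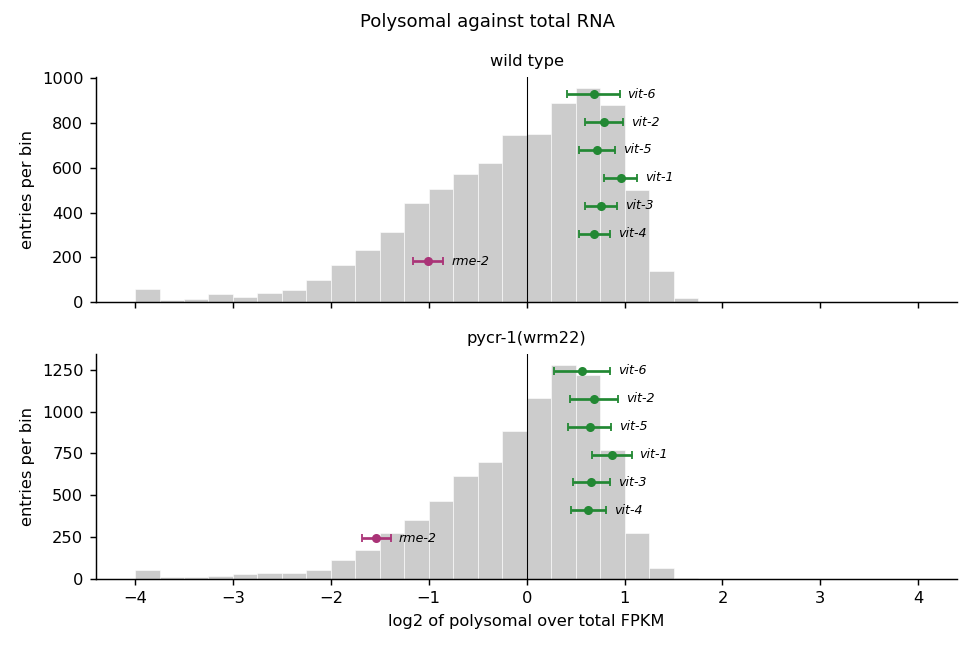
Number of entries at 5 FPKM or more per bin of the log2 ratio of polysomal over total FPKM (grey bars; the end bins also hold values beyond them), with the ratio and SE of each of the 7 genes drawn at heights that carry no meaning. The vitellogenins sit at 0.68 to 0.96 in wild type and 0.56 to 0.87 in pycr-1(wrm22), and rme-2 at -1.01 and -1.54.

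Whether that division differed between the strains was tested on the difference of the 2 log2 ratios, pycr-1(wrm22) minus wild type, with a Wald test on variances implied by the Cuffdiff statistics and Benjamini-Hochberg adjustment over 14037 entries. For the vitellogenins the difference ran from -0.063 ± 0.24 (vit-4; 95% interval -0.53 to 0.41) to -0.12 ± 0.39 (vit-6; -0.89 to 0.65), with an adjusted p of 1.00 for each. At rme-2 the difference was -0.53 ± 0.21 (95% interval -0.95 to -0.11), and it did not pass (Benjamini-Hochberg value 0.860). None of the 7 passed in either direction, against 0.0712% of entries called higher and 0.0784% called lower, and 552 entries had an unadjusted p under 0.05. With undivided variances the adjusted p of rme-2 was 1.00, and 2 entries passed among all tested. Of 7773 entries at 5 FPKM or more in all groups, 2.06% had a lower difference than rme-2.

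The genes nearest in pattern were those with the smallest Euclidean distance of log2 FPKM, centred over the 4 groups, among 7778 genes at 5 FPKM or more in all of them. Nearest to rme-2 were F18A1.7 (distance 0.12), the Pumilio-family RNA-binding protein gene puf-5 (0.13), the oocyte maturation gene oma-2 (0.14), the protease-like gene try-1 (0.16) and egg-1 (0.17), whose product is an LDL-receptor-repeat protein of the oocyte surface. Nearest to the mean of the vitellogenins were aco-2, a mitochondrial aconitase gene (0.027), Y48A5A.3 (0.032), sur-5 (0.040), W04C9.4 (0.041) and the pyruvate kinase gene pyk-1 (0.041). The vitellogenins themselves lay 0.076 to 0.23 from their mean, and rme-2 lay 2.27 from it. The 4 points of each pattern share their libraries and scaling, so the distances are a description.

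**Figure D4:**
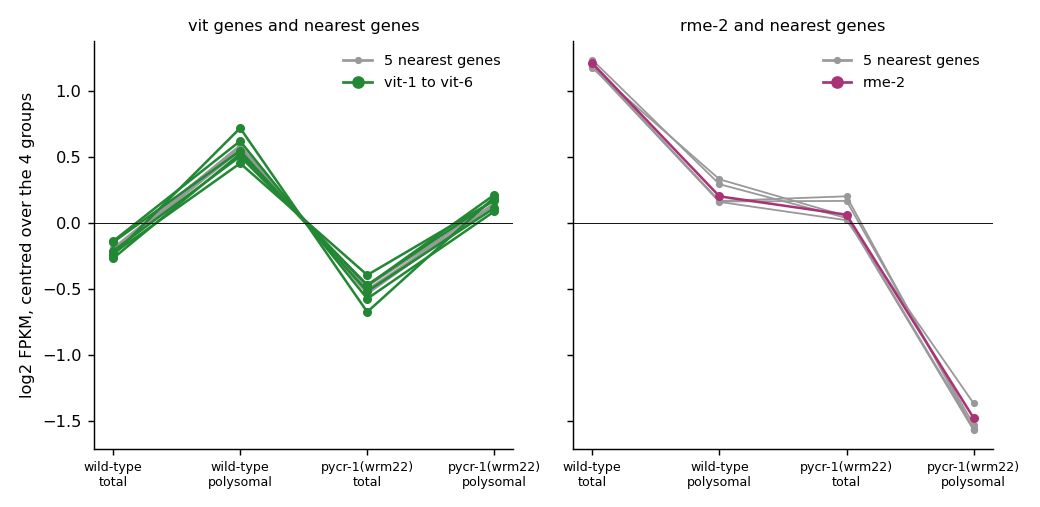
Log2 FPKM centred over the 4 groups for the vitellogenins (left) and rme-2 (right), each with its 5 nearest genes in grey. The left profiles peak in wild-type polysomal RNA, and the right ones fall from wild-type total to pycr-1(wrm22) polysomal RNA.

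The tissue of each gene was followed with marker lists. Oocyte markers moved with rme-2. In total RNA 18 of 19 fell and 0 rose, against 27.9% of all entries lower and 18.6% higher. In polysomal RNA 19 of 19 fell, against 23.9%. The median log2 fold change was -0.88 in total RNA, -0.53 when centred on the median at 5 FPKM and -1.61 when rescaled with rrn-2.1 in the sum, and -1.52 in polysomal RNA. Their summed level went from 6997 FPKM in wild-type total to 3930 in pycr-1(wrm22) total, and from 4416 to 2111 in polysomal RNA. The authors' deposited table has the RNA-binding protein genes mex-1 (-1.22), oma-2 (-1.20), puf-5 (-1.16) and lin-41 (-1.14) as the largest falls in total RNA, and oma-2 (-1.86), egg-1 (-1.72), the eggshell proteoglycan gene cpg-1 (-1.70) and oma-1 (-1.59) in polysomal RNA (adjusted p = 0.000207 for each, Cuffdiff). In whole worms fewer cells of a type and less RNA per cell cannot be told apart, and the part of oocyte number in the value of rme-2 was not tested. Within a strain most oocyte markers also resembled rme-2. In polysomal against total RNA 15 of 19 were lower and 2 higher in wild type, and 16 were lower and 2 higher in pycr-1(wrm22). Over all entries 26.9% were lower and 24.7% higher in wild type, and 27.0% and 23.9% in pycr-1(wrm22). The 2 higher markers were perm-2 and perm-4, with log2 ratios of 1.08 and 1.15 in wild type and 0.97 and 1.05 in pycr-1(wrm22).

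No intestine marker passed downwards between the strains, and their difference from the vitellogenins was not tested. In total RNA 3 of 12 rose and 0 fell, where 18.6% of all entries were higher and 27.9% lower, and in polysomal RNA 0 passed in either direction, where 14.8% were higher and 23.9% lower. The medians were 0.14 and 0.051, and the one in total RNA became -0.59 when rescaled with rrn-2.1 in the sum. Under the other scalings it was 0.49 (centred on the median at 5 FPKM), 0.19 (ribosomal protein genes) and 0.33 (protein-coding entries). Each of those put 12 of 12 values above 0. In polysomal RNA 12 of 12 lay above 0 under every alternative scaling. Their summed level was 4374 FPKM in wild-type total, 4680 in pycr-1(wrm22) total, 6582 in wild-type polysomal and 6390 in pycr-1(wrm22) polysomal RNA. The authors' deposited table gives as the 3 that rose in total RNA the protease gene cpr-1 (0.55, adjusted p = 0.00137), the intermediate filament gene ifb-2 (0.45, adjusted p = 0.0105) and the gut esterase gene ges-1 (0.39, adjusted p = 0.0457, Cuffdiff). Between fractions the intestine markers shared the direction of the vitellogenins. In polysomal RNA 8 of 12 were higher in wild type and 7 in pycr-1(wrm22), and 0 were lower in either. Over all entries 24.7% were higher and 26.9% lower in wild type, and 23.9% and 27.0% in pycr-1(wrm22). Of entries at 406 FPKM or more in both groups, 73.9% were higher in wild type and 45.5% in pycr-1(wrm22).

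Of the markers of sperm, which the hermaphrodite also makes, 8 of 9 rose in total RNA and 8 of 9 in polysomal RNA, with 0 lower, against 18.6% and 14.8% of all entries higher. The medians were 0.82 and 0.77, and the one in total RNA became 0.094, with 5 values above 0 and 4 below, when rescaled with rrn-2.1 in the sum. Under the other scalings it was 1.17 (centred on the median at 5 FPKM), 0.87 (ribosomal protein genes) and 1.01 (protein-coding entries). Each of those put 8 of 9 values above 0. Their summed level was 126 FPKM in wild-type total against 194 in pycr-1(wrm22) total, and 200 against 276 in polysomal RNA. The largest rises the authors' deposited table holds were those of spe-38, needed by sperm at fertilization (1.30 in total, 1.05 in polysomal RNA), spe-42 (1.08 and 0.94), the ferlin gene fer-1 (0.94 and 1.12) and spe-9 (0.89 and 0.85). Of these, spe-38, spe-42 and spe-9 stood at or below 2.54 FPKM in every group.

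Among genes known to act on vitellogenin transcription, 3 of 11 fell and 0 rose in total RNA, close to the 27.9% of all entries lower. In polysomal RNA 0 of 10 passed, against 23.9% lower and 14.8% higher. Those that fell by the authors' deposited table were rict-1, a subunit gene of the kinase complex TORC2, read here from an entry merged with col-86 (-0.67, adjusted p = 0.000736), the insulin receptor gene daf-2 (-0.54, adjusted p = 0.00238) and the transcription factor gene skn-1 (-0.52, adjusted p = 0.00238, Cuffdiff). Factors known to act on the vit promoters did not pass. The intestinal GATA factor gene elt-2 was listed at 8.07 against 10.0 FPKM in total RNA and the MEIS-family gene unc-62 at 18.9 against 16.5. For the PBX-family gene ceh-60 it was 6.99 against 9.15, each wild type first.

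Many genes of the machinery that takes yolk into oocytes were lower in the mutant-labelled worms. Of 23 genes of endocytosis and recycling 14 fell and 0 rose in total RNA, against 27.9% of all entries lower, and 17 fell and 0 rose in polysomal RNA, against 23.9%. The medians were -0.43 and -0.49. Centred on the median of entries at 5 FPKM or more, the median in total RNA became -0.083, and 16 of 23 values were below 0 in place of 22. The largest falls in total RNA were those of the adaptor genes dab-1 (-0.88, from 133 to 72.3 FPKM) and num-1 (-0.64), of lst-4, a sorting nexin gene (-0.59), and of rme-6, whose product activates the early-endosome GTPase RAB-5 (-0.59), by the authors' deposited table. In polysomal RNA the authors' deposited table has lst-4 (-0.93), rme-6 (-0.80), the sorting nexin gene snx-3 (-0.75) and rab-5 (-0.73) as the largest falls. The clathrin heavy chain gene chc-1 stood in the authors' deposited table at -0.56 in total and -0.52 in polysomal RNA (adjusted p = 0.00121 and 0.00238, Cuffdiff). All of these falls were smaller than those of rme-2, with no test of that difference.

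**Figure D5:**
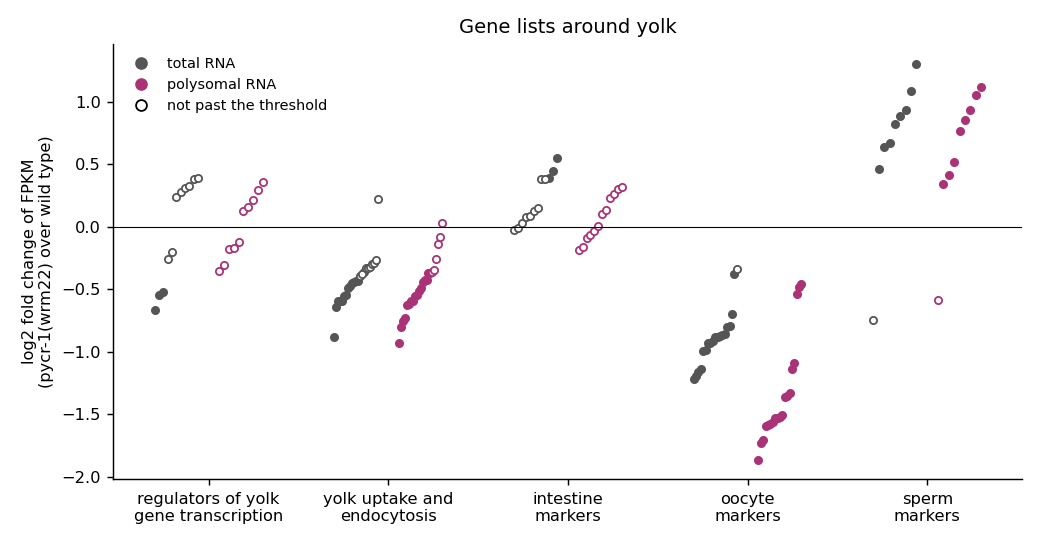
Log2 fold change of FPKM, pycr-1(wrm22) over wild type, for each tested gene of 5 lists in total and polysomal RNA, filled where the authors' q-value was under 0.05. Oocyte markers reach -1.86, intestine markers stay between -0.19 and 0.55, and the uptake list lies mostly below 0 with a median of -0.43 in total RNA, close to the median of all expressed entries.

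Of 4 other LDL-receptor-repeat genes 2 passed in each fraction, both downwards. Of all entries 27.9% were lower and 18.6% higher in total RNA, and 23.9% and 14.8% in polysomal RNA. The 2 that fell were the oocyte genes egg-1 and egg-2, already counted among the 19 oocyte markers. For them the authors' deposited table holds log2 values of -0.99 and -0.93 in total RNA and -1.72 and -1.57 in polysomal RNA (adjusted p = 0.000207 for each, Cuffdiff). The megalin-related lrp-1 and lrp-2, at 12.3 and 18.1 FPKM in wild-type total RNA, had log2 fold changes of 0.31 and 0.11 by the authors' deposited table and did not pass (adjusted p = 0.0656 and 0.552). Of the genes for lipid loading and breakdown of yolk, dsc-4, encoding the microsomal triglyceride transfer protein, was listed at 29.1 against 33.9 FPKM in total RNA, and cpl-1, encoding a cathepsin L protease, at 793 against 663. Neither passed in total or polysomal RNA. Both were higher in polysomal than in total RNA in each strain, and the authors' deposited table puts cpl-1 at 1.18 in wild type and 1.08 in pycr-1(wrm22) on the log2 scale (adjusted p = 0.000207, Cuffdiff).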

How the data were processed

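The tools named in the submitters' processing notes are HISAT2 2.1.0, FastQC 0.11.7, Cuffdiff 2.2.1 and StringTie 1.3.4d, and the build named is WBcel235. Settings and strandedness are not given in the sources used here. The authors deposited 1 pooled FPKM per gene and group. For 6 pairs of groups they also deposited a q-value, a p-value, the log2 fold change and a test statistic, a score without bounds. The 2 pairs differing in both strain and fraction are not reported as comparisons, but their test statistics entered the variances below. The authors' q-values were adjusted over the tests of all 6 pairs. Left out were the deposited lists of genes called significant. Library depth is unknown, so no counting interval is given.

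From these values the variance of log2 FPKM in each group was solved by least squares from the test statistics and divided by the number of libraries. Where a deposited p-value lay between 0.001 and 0.01, its median was 0.00315, and the Wald p-value had a median of 0.00210 with divided and 0.100 with undivided variances. The Wald test was tested on simulated data. Their noise was independent between groups and had the divided variances that the test uses. The simulation therefore cannot check that division or the sharing of replicates between fractions. Start positions were counted from 0 in the files, and 1 was added. Python 3.11.15, pandas 2.3.3, numpy 2.4.6 and scipy 1.17.1 were used.

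The members and all gene lists were chosen with earlier results of these data known. Named were all 7 members and, per list and direction, up to 4 genes past the threshold with the largest change in each strain comparison, plus the 5 genes nearest in pattern to the vitellogenin mean and to rme-2. Named outside that rule, after their values were seen, were chc-1, elt-2, unc-62, ceh-60, lrp-1, lrp-2, dsc-4, cpl-1, perm-2 and perm-4. The genes rict-1, gsp-4 and chs-1 are read from entries that hold several gene names. Alternatives were a stricter threshold, adjustment within a comparison, a filter at 1 FPKM, a pseudocount of 1, Wald p-values, other scalings and other denominators.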

Additional observations from a re-analysis of the deposited data

How the results depend on the processing

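In the strain and fraction comparisons rme-2 kept its call under 36 of 36 alternatives with a test. Over single genes, 221 of 273 alternatives with a test kept the result, 39 lost the call, 6 gained one and 7 changed sign. Kept means the same direction and side of the threshold. For the difference of the ratios between the strains only the direction was compared. In total RNA vit-2, vit-5 and vit-6 became 0.15, 0.094 and 0.19 when centred on the median at 5 FPKM. The value of vit-6 became 0.027 when FPKM was rescaled over protein-coding entries, a setting added after seeing the data. In polysomal RNA vit-2, vit-5 and vit-6 became 0.061, 0.043 and 0.091 when centred on ribosomal protein genes.

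The 4 falls in total RNA became 1 at a q-value under 0.01, with undivided variances, under both centrings and under the protein-coding rescaling. They became 7 when FPKM was rescaled over all entries but the vitellogenins, a sum that holds rrn-2.1 and shifts the fold changes by 0.72. The 2 polysomal falls became 4 with Wald p-values from divided variances and 1 under the stricter threshold, undivided variances, both centrings and both rescalings. The 6 rises between fractions in wild type became 3 with undivided variances and 1 centred on ribosomal protein genes. The 5 in pycr-1(wrm22) became 3 at the stricter threshold and 0 with undivided variances. Where no cause is named, the cause was not tested.

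The vitellogenin share of FPKM moved from 0.801% to 1.08% (protein-coding entries) and 1.76% (without other entries over 1000 FPKM) in wild-type total. With those denominators it was 1.05% and 1.77% in pycr-1(wrm22) total RNA, where it was 0.756% without entries marked as low data or failed. Without other entries over 1000 FPKM it was 2.88% in wild-type polysomal and 2.57% in pycr-1(wrm22) polysomal RNA.

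No paired analysis was possible because the table holds 1 pooled value per group and none per library. Leaving out replicates was not run, since the deposited table has no values per library, and no library was checked for standing apart. Depth is unknown.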

Other observations

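The spread implied for the vitellogenins differed between groups more than that of rme-2. In wild-type polysomal RNA their implied SD lay between 0.17 and 0.18 on the log2 scale, at or below the percentile 1.27 of entries with such a value. In pycr-1(wrm22) polysomal RNA it ran from 0.29 for vit-4 to 0.50 for vit-6, percentiles 59.1 to 84.0. In total RNA it was 0.22 to 0.43 in wild type and 0.21 to 0.29 in pycr-1(wrm22). For rme-2 it stayed between 0.18 and 0.21 in the 4 groups. Within pycr-1(wrm22) polysomal RNA the SD was larger for vitellogenins of higher level. It ran from vit-4 and vit-3 (0.31) through vit-1 (0.34), vit-5 (0.38) and vit-2 (0.43) to vit-6. The same order held in total RNA, from 0.22 (vit-4) to 0.43 (vit-6) in wild type and from 0.21 to 0.29 in pycr-1(wrm22). These are model values without an error of their own, and no difference between them was tested.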
